A study of Homo sapiens with 6 samples.

Results

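The genes described are 45 translation factors, the proteins that start, lengthen and end a polypeptide chain on the cytosolic ribosome. They were chosen by function from the NCBI Gene numbers listed in a table of read counts, leaving out the subunits of eIF2 and the kinases that phosphorylate it. The table lists 29806 Gene numbers. All 45 factors are in it, and 44 passed the filter on low counts that left 14462 genes for testing. The counts come from 6 polyA RNA-seq libraries of LNCaP, a human prostate cancer line that responds to androgen. Of these, 3 are of LNCaP parental cells, labelled wild type, and 3 are of PACT KO cells, in which CRISPR-Cas9 was directed at *PRKRA*, the gene of the double-stranded RNA binding protein PACT. Both groups were grown in RPMI-1640 with fetal bovine serum, and RNA was taken from 10 cm dishes at 48 h after plating and about 80% confluency. The PACT KO cells were grown up from single colonies after sorting, and the study states that the same clone served for its later experiments. No such step is described for the parental cells, so that loss of PACT and the history of a clone cannot be told apart. Nothing in the labels says that dishes of a group came from separate cultures, and the FDR values below then measure only the spread between dishes, which may be technical.

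Translation starts when the eIF4F complex binds the cap of an mRNA through eIF4E, with eIF4G as scaffold and eIF4A as helicase, and recruits the small ribosomal subunit with its bound eIF3, eIF1, eIF1A, eIF5 and eIF2. eIF2 carries the initiator tRNA and is recharged with GTP by eIF2B, and eIF5B joins the large subunit. eEF1A then delivers each aminoacyl-tRNA, eEF2 moves the ribosome along, eIF5A eases difficult peptide bonds, and eRF1 and eRF3 release the finished chain at a stop codon. mRNAs of many of these factors begin with a run of pyrimidines, the 5′ terminal oligopyrimidine (TOP) start, and are translated under control of the mTORC1 kinase complex.

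The 6 libraries held 19930060 to 24940838 reads on genes. *PRKRA* was checked first and had 882, 809 and 866 parental reads against 291, 331 and 243 reads after the knockout, a log2 fold change of -1.57 (SE 0.07, FDR 8.83e-21), so transcripts of the targeted gene were lower but not absent. The luminal markers chosen for LNCaP were all detected, with summed levels of 3700 to 3734 CPM in parental and 3743 to 3788 CPM in PACT KO libraries, where CPM are read counts scaled to a common library total with TMM factors. Of these 10 markers 4 were lower and 2 higher, among them *KLK3*, the gene of prostate-specific antigen, at -2.50 on the log2 scale. Of 4 prostate basal markers, *KRT5* and *KRT15* were at 0 in every library, and the sum of the list was at most 0.185 CPM. *COL1A2* was at 0 in every library among 6 stromal markers, yet the summed level of that list was 33.3 to 38.3 CPM in parental and 45.4 to 50.9 CPM in PACT KO libraries, through *COL1A1* (log2 fold change 0.52). *CD3E*, *PECAM1* and *CDH5* were at 0 in every library among 6 leukocyte and endothelial markers, whose sum went from 26.6 to 29.2 CPM down to 17.2 to 19.1 CPM, mostly through *VWF* (-0.61). The part of these 2 lists in the results below was not tested.

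Most translation factor mRNAs were slightly lower in PACT KO cells. At an FDR under 0.01, meaning the Benjamini-Hochberg adjusted p-value of edgeR's quasi-likelihood test over all 14462 genes, 28 of the 44 factors tested (63.6%) were lower and 2 (4.55%) were higher, and 14 did not pass. Over all genes tested, 18.8% were lower and 15.3% higher. The median log2 fold change of the factors was -0.12, and 36 of 44 had a negative value, whereas the median of all genes was 0.00. The changes were small throughout. The range ran from -0.41 for *EIF3B*, 75.1% of the parental level, to 0.43 for *EIF4A2*, 135% of it. No factor reached the 1.5-fold change that the study asked of a differentially expressed gene (DEG) together with an FDR under 0.01, which 5.72% of all genes tested did. The count was 0 with DESeq2 and with limma-voom as well. In 33 of the 44 factors the CPM of the PACT KO libraries did not overlap those of the parental libraries, against 52.2% of all genes tested. In bulk RNA, fewer cells that express a gene and less RNA per cell cannot be told apart.

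Abundant genes pass a test more easily, so a background with a floor on level was added after the values had been seen. Among the 6940 genes that averaged 30 CPM or more over all libraries, 29.2% were lower, 17.9% were higher and the median log2 fold change was -0.03. Of the 42 factors above this floor, 27 (64.3%) were lower and 2 higher, with a median of -0.12. The share of lower factors thus stood above this background as well. The floor does not match levels, however, and some factors lie far above it. *EEF1A1* and *EEF2* averaged 7443 and 6019 CPM in parental libraries. No background matched to the levels of the factors was drawn. DEGs were rare above the floor, 108 of the 6940 genes and 0 of the 42 factors. The CPM of the groups did not overlap in 4348 of these genes and in 31 of these factors. Leaving out 1 library at a time gave 20 to 26 lower factors, the fewest without LNCaP parental replicate 1. With the libraries scaled by total count or by upper quartile, 22 were lower and 3 higher.

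**Figure D1:**
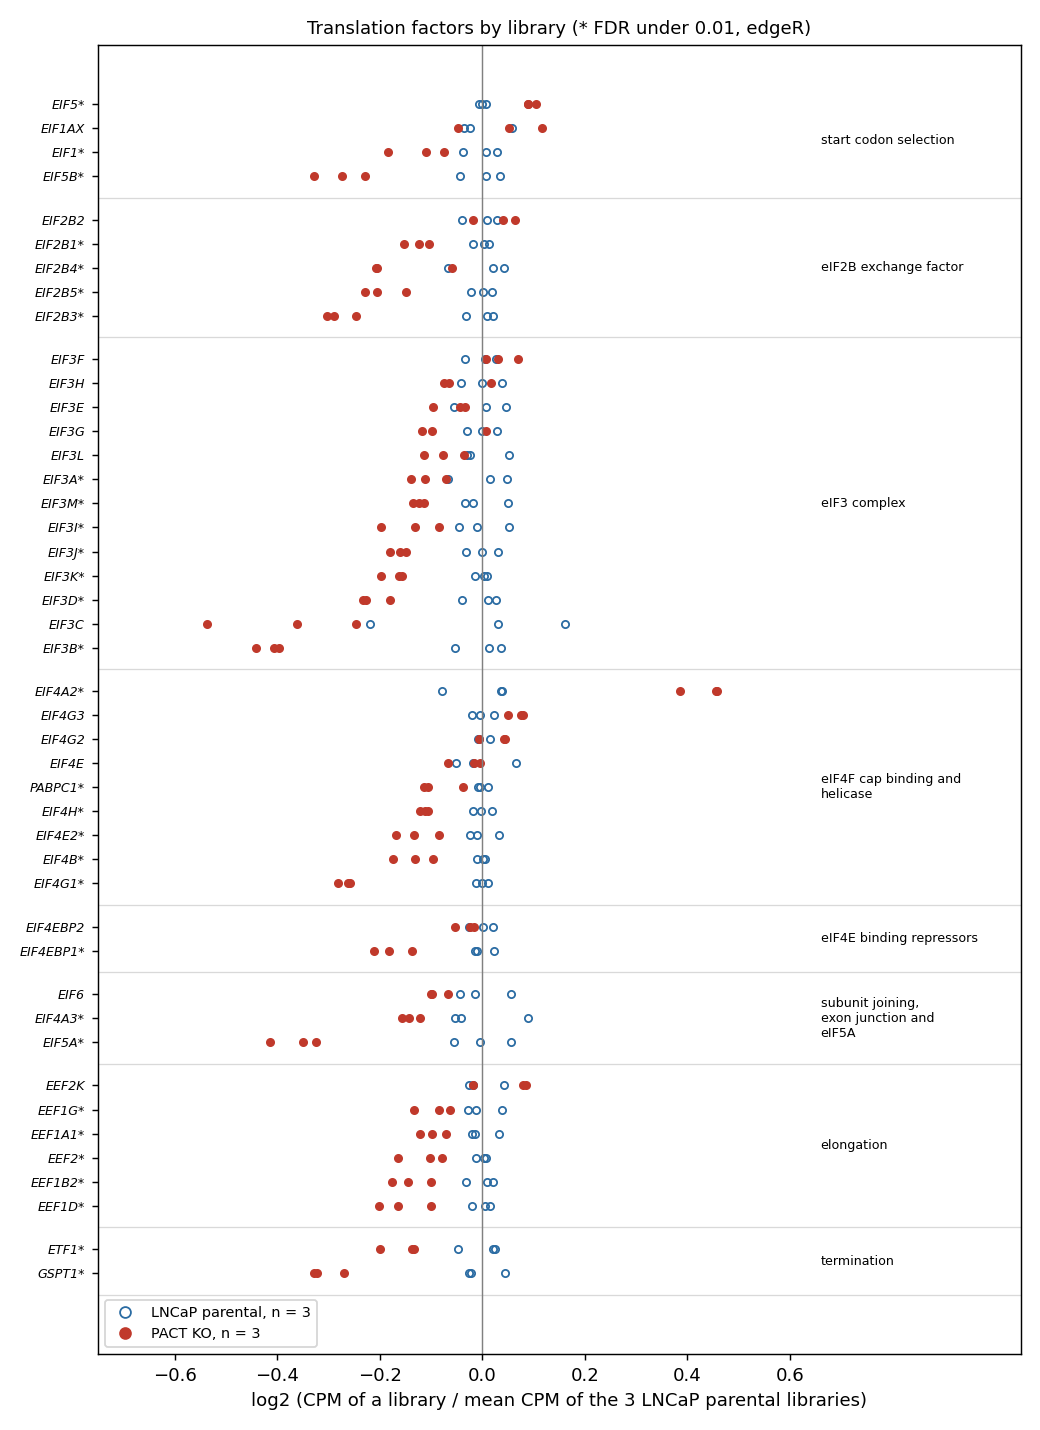
Level of each tested translation factor in each of the 6 libraries, as log2 of its CPM over the mean CPM of the 3 LNCaP parental libraries (horizontal axis), by factor group. Open points are parental libraries, filled points are PACT KO libraries, and a star marks an FDR under 0.01. Most filled points lie to the left of the open points by less than 0.4, and those of *EIF4A2* lie far to the right.

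**Figure D2:**
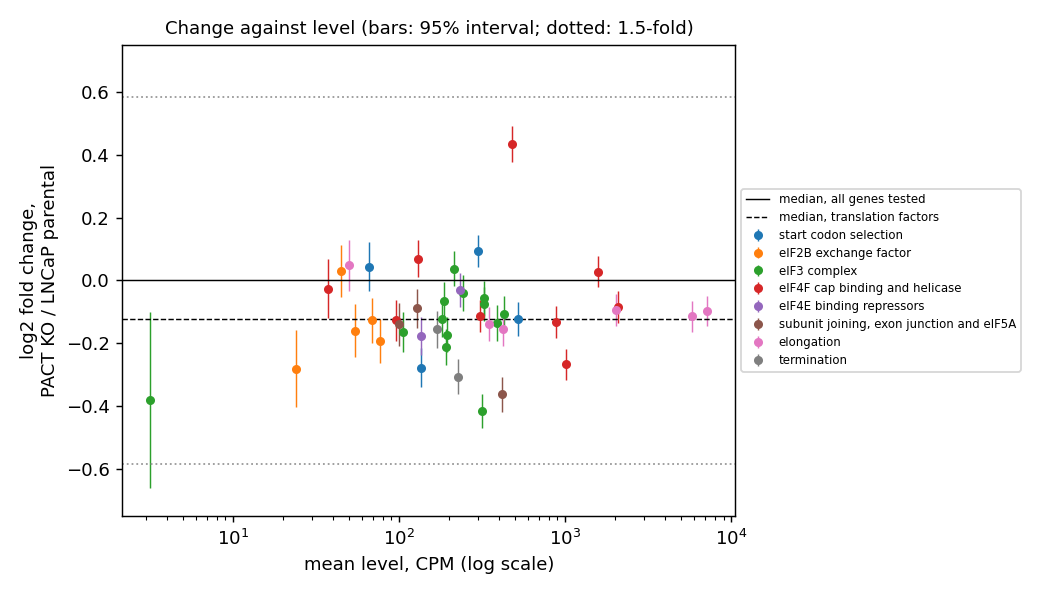
Log2 fold change of PACT KO over LNCaP parental cells (vertical axis, bars are 95% intervals) against mean CPM on a log axis, 1 point per tested factor, coloured by group. CPM are not divided by transcript length, so places along the horizontal axis show read depth and do not rank the factors by abundance. No point lies outside the dotted lines at 1.5-fold, and the dashed line at -0.12 is the median of the factors.

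Start sites were compared because TOP starts mark mRNAs of the translation apparatus. RefSeq promoters on GRCh38.p14, from 250 bases before to 50 after a start, were matched to 37 of the 45 factors. Entries for *EIF3A*, *EIF3E*, *EIF3G*, *EIF3H*, *EIF3L*, *PABPC1*, *EIF4EBP1* and *EEF1D* were not used here. A start was counted as TOP when the annotated first base was C with 4 pyrimidines after it, read on the transcribed strand. This held for at least 1 listed start of 9 of the 37 factors (24.3%) and of 1094 of 18658 genes of the table with a promoter (5.86%). The windows of these 9 factors are given from 40 bases before to 10 from the start onwards, on the transcribed strand. Capitals mark the run of pyrimidines at the start, cut at the end of the window, and the letters TATAAA in *EEF2* and *EIF4A2*.
*EEF1A1*, chr6:73521023-73521072, minus strand: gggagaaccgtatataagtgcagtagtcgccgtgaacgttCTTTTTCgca
*EEF1B2*, chr2:206159855-206159904, plus strand: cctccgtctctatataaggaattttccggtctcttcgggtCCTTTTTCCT
*EEF2*, chr19:3985454-3985503, minus strand: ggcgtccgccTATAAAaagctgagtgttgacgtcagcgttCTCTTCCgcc
*EIF3D*, chr22:36529157-36529206, minus strand: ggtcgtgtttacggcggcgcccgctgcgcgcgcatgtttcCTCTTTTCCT
*EIF3F*, chr11:7987297-7987346, plus strand: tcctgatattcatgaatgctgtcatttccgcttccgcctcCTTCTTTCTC
*EIF3K*, chr19:38619148-38619197, plus strand: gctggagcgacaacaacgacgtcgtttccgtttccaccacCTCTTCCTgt
*EIF3M*, chr11:32583791-32583840, plus strand: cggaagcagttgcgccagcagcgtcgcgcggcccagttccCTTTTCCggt
*EIF4A2*, chr3:186783537-186783586, plus strand: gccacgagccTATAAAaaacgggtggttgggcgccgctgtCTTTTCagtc
*EIF4B*, chr12:53006416-53006465, plus strand: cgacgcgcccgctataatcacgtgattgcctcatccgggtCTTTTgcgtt

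Factors with and without such a run were set side by side, with no test of the difference. Of the 9 factors with a TOP start, 7 were lower and 1, *EIF4A2*, was higher, with a median log2 fold change of -0.12. Of the 27 other factors with a promoter and a test, 17 were lower and 1 was higher, with a median of -0.13. For comparison, 18.8% of all genes tested were lower and 15.3% higher. The split follows the annotated start alone. *EEF1G*, known for a TOP mRNA, is among the others. *EEF1D*, *EIF3E*, *EIF3H* and *PABPC1*, also known for one, are in neither set. *EEF2* and *EIF4A2* share both TATAAA and a TOP start and went in opposite directions, at -0.11 and 0.43.

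Other short motifs were counted in the same promoters on both strands. TATAAA was present for 3 of the 37 factors (8.11%) and for 12.5% of all genes with a promoter. The letters CCGGAA, the core that ETS factors recognise, were present for 18 factors (48.6%) and 24.7% of all genes, and CACGTG, the E-box, for 9 factors (24.3%) and 10.2% of all genes. None of these motifs lies within another, and a match describes letters and not a bound site. For them and for the TOP start, the 18658 genes of the background outnumber the 14462 tested, so it includes genes too low to test. No share among tested or abundant genes was counted. *EIF4G1* and *EIF4E*, the scaffold and the cap-binding subunit of eIF4F, each have 2 E-boxes ahead of a start, in capitals in the windows that follow.
*EIF4G1*, chr3:184314446-184314555, plus strand: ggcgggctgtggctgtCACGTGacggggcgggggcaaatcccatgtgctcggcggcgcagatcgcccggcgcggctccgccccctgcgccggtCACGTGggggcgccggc
*EIF4E*, chr4:98929194-98929373, minus strand: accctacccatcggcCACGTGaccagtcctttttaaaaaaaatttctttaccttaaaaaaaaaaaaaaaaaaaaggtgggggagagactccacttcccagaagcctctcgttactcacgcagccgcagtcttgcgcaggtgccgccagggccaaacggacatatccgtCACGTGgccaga
Of these genes *EIF4G1* fell by 0.27 on the log2 scale, and *EIF4E* had a value of -0.03 with an FDR of 0.684. The difference between them was not tested.

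In the group named for start codon selection, which also holds *EIF5B* of subunit joining, *EIF5B* and *EIF1* fell and *EIF5* rose. *EIF5B*, the GTPase that joins the ribosomal subunits, had 3271, 3291 and 3698 parental reads and 3038, 2878 and 2562 PACT KO reads, or 149 ± 4.13 against 123 ± 4.20 CPM (SD, n = 3 each). The groups did not overlap, and the log2 fold change was -0.28 (SE 0.03, FDR 2.7e-09). *EIF1*, which guards against starts at the wrong codon, had 12514, 11380 and 13435 reads in parental and 11754, 12464 and 10124 in PACT KO libraries, 540 ± 12.6 against 496 ± 18.8 CPM. Raw reads overlap here because the libraries differ in depth, but CPM did not, and *EIF1* fell by 0.12 (FDR 4.31e-04). *EIF5*, whose product makes eIF2 hydrolyse its GTP once a start codon is found, had 6539, 6251 and 7197 reads in parental and 7605, 7480 and 6291 in PACT KO libraries. At 289 ± 1.31 against 309 ± 2.01 CPM it was 1 of the 2 factors that rose, by 0.09 (SE 0.03, FDR 0.00295). The rise of *EIF5* missed the threshold without LNCaP parental replicate 1 and without replicate 2, at 0.09 in both fits. *EIF1AX*, which scans together with eIF1, had a log2 fold change of 0.04 and overlapping groups.

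All but 1 of the subunits of eIF2B, the exchange factor that returns eIF2 to its GTP form, were lower in PACT KO cells. This share of 80% stood beside 18.8% lower over all genes tested and 63.6% over all 44 factors. *EIF2B3*, a subunit of the catalytic subcomplex, had 605, 560 and 665 reads in parental and 535, 522 and 451 in PACT KO libraries. That is 26.5 ± 0.50 against 21.8 ± 0.44 CPM, a log2 fold change of -0.28 (SE 0.06, FDR 3.04e-04), the lowest of the 5. *EIF2B5*, the catalytic subunit itself, had 1880, 1763 and 2077 against 1844, 1745 and 1428 reads and fell by 0.19 (FDR 2.15e-05). In both genes every PACT KO library was below every parental library in CPM. *EIF2B4*, a regulatory subunit, had 1341, 1183 and 1440 reads in parental and 1228, 1208 and 1112 in PACT KO libraries. Its CPM overlapped, since PACT KO replicate 3 at 55.0 lay above LNCaP parental replicate 2 at 54.7, and the log2 fold change was -0.16 (FDR 0.00227). *EIF2B1*, another regulatory subunit, had 1646, 1555 and 1757 against 1628, 1570 and 1351 reads and fell by 0.13 (FDR 0.00377). These 2 falls were the less certain of the group. Of 15 alternatives, 6 lost the call of *EIF2B4* and 7 that of *EIF2B1*, among them DESeq2 and total count scaling for both. *EIF2B4* did not pass with LNCaP parental replicate 1 (-0.14) or 3 (-0.15) left out, nor without PACT KO replicate 1 (-0.13) or 2 (-0.14), and *EIF2B1* did so without LNCaP parental replicate 1 (-0.12) or 2 (-0.13) and without PACT KO replicate 1 (-0.12) or 2 (-0.11). *EIF2B2*, a further regulatory subunit, did not pass the test, with 44.3 ± 1.08 and 45.2 ± 1.31 CPM in overlapping groups.

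Of the 13 subunits of eIF3, the scaffold that holds the small ribosomal subunit, 7 (53.8%) were lower and none was higher, with a median of -0.12. Lower were 18.8% of all genes tested, 29.2% of those of at least 30 CPM and 63.6% of all 44 factors. *EIF3B*, which helps to form the core on which the complex is assembled, had the lowest log2 fold change of all 44 factors. Its reads were 8475, 7942 and 8685 in parental and 6779, 6720 and 5415 in PACT KO libraries, which is 373, 367 and 351 CPM against 274, 276 and 268 CPM. The groups were far apart compared with the spread within them, and *EIF3B* fell by 0.41 (SE 0.03, FDR 2.39e-15). Genes that lie within 2 Mb of *EIF3B* had a median log2 fold change of -0.07 (32 genes). *EIF3D*, a subunit that can itself bind the cap of some mRNAs, had 4747, 4568 and 5002 against 4382, 4452 and 3571 reads and 207 ± 4.86 against 179 ± 3.52 CPM, a change of -0.21 (FDR 1.08e-07). *EIF3K* had 4699, 4459 and 5045 against 4429, 4470 and 3730 reads and fell by 0.17 (FDR 2.84e-06). *EIF3J*, a loosely held subunit near the decoding centre, had 2549, 2374 and 2842 against 2450, 2443 and 2048 reads and fell by 0.16 (FDR 5.25e-05). In all of these the groups did not overlap in CPM.

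The other eIF3 subunits changed less. *EIF3I* (-0.14), *EIF3M* (-0.12) and *EIF3A* (-0.11) were lower. *EIF3M* missed the threshold without LNCaP parental replicate 1 (-0.10), and *EIF3A*, the largest scaffold subunit, did so without LNCaP parental replicate 2 (-0.10) or 3 (-0.08) and without PACT KO replicate 3 (-0.10). The call of *EIF3A* was also lost with upper quartile and with total count scaling. *EIF3E*, *EIF3F*, *EIF3G*, *EIF3H* and *EIF3L* did not pass, with values from -0.07 to 0.04, but *EIF3G* passed without PACT KO replicate 1 (-0.10) and *EIF3L* without PACT KO replicate 2 (-0.10). *EIF3C* had only 61 to 92 reads per library and a value of -0.38 (SE 0.14, FDR 0.0286). Its nearly identical copy *EIF3CL* had 0 to 1 reads, and how reads shared by the copies were counted is not given, so the level of *EIF3C* is uncertain. Subunits of 1 complex thus ranged from -0.41 to 0.04.

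The eIF4F group held the clearest rise. *EIF4A2*, 1 of the 2 closely related helicases that unwind mRNA leaders as eIF4A, had 9590, 8433 and 10481 parental reads and 13968, 13760 and 10884 PACT KO reads. In CPM these were 422, 390 and 423 against 565, 566 and 538, and every PACT KO library was above every parental library by over 100 CPM. The log2 fold change was 0.43 (SE 0.03, FDR 2.81e-15), and it stayed between 0.40 and 0.46 in all 15 alternatives. Introns of the gene hold several small nucleolar RNAs and *MIR1248*, and the use of strand in counting is not given. Genes within 2 Mb had a median of 0.08 (22 genes).

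*EIF4A1*, the other helicase, was listed at 0 reads in all 6 libraries and could not be tested. Its locus lies within that of the read-through gene *SENP3-EIF4A1*, which had 1, 5 and 0 reads in parental and 2, 4 and 2 in PACT KO libraries. *SENP3*, the upstream gene, had 371 to 499 reads. The cause of the zeros was not tested, and since nearly all cells use this helicase, they say nothing about its level. Whether the rise of *EIF4A2* came with a change in *EIF4A1* therefore could not be asked of these counts.

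The scaffold and the helicase cofactors fell. *EIF4G1* had 25399, 23998 and 27249 reads in parental and 22919, 22524 and 18453 in PACT KO libraries, or 1119, 1110 and 1100 CPM against 928, 926 and 913 CPM. The spread within a group was at most 9.19 CPM (SD), and *EIF4G1* fell by 0.27 (SE 0.02, FDR 1.87e-11). *EIF4B*, which stimulates the helicase, had 21197, 20131 and 22872 against 21478, 20652 and 16651 reads, or 929 ± 5.22 against 847 ± 22.9 CPM, and fell by 0.13 (FDR 5.03e-05). *EIF4H*, which acts like it, fell by 0.11 (FDR 4.93e-04). *EIF4E2*, a cap-binding homologue found in repressor complexes, had 2237, 2216 and 2462 against 2333, 2169 and 1847 reads and fell by 0.13 (FDR 0.00197), a call lost without LNCaP parental replicate 2 (-0.11) or PACT KO replicate 2 (-0.11). In all, 5 of 15 alternatives lost the call of *EIF4E2*. *PABPC1*, the poly(A) binding protein that touches eIF4G, fell by 0.08 (FDR 0.00621). That was the weakest call of the set. It was lost without any 1 of LNCaP parental replicates 1 (-0.08), 2 (-0.09) and 3 (-0.09) or PACT KO replicates 1 (-0.07) and 3 (-0.07), and in 9 of 15 alternatives in all.

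*EIF4E*, the cap-binding protein itself, did not pass the test. It had 896, 805 and 901 reads in parental and 921, 914 and 728 in PACT KO libraries, 37.7 ± 1.59 against 37.0 ± 0.83 CPM, with a 95% interval of the log2 fold change from -0.12 to 0.07. The value was also close to 0 with other scalings and turned positive, to 0.0027 with total counts and to 0.0066 without LNCaP parental replicate 1. Neither relative of *EIF4G1* passed as lower. *EIF4G2*, which supports translation without binding eIF4E, had a value of 0.03 and overlapping groups. *EIF4G3*, the other full-length scaffold, had a value of 0.07 (FDR 0.0562), and passed as higher with total count (0.10) and upper quartile (0.09) scaling.

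**Figure D3:**
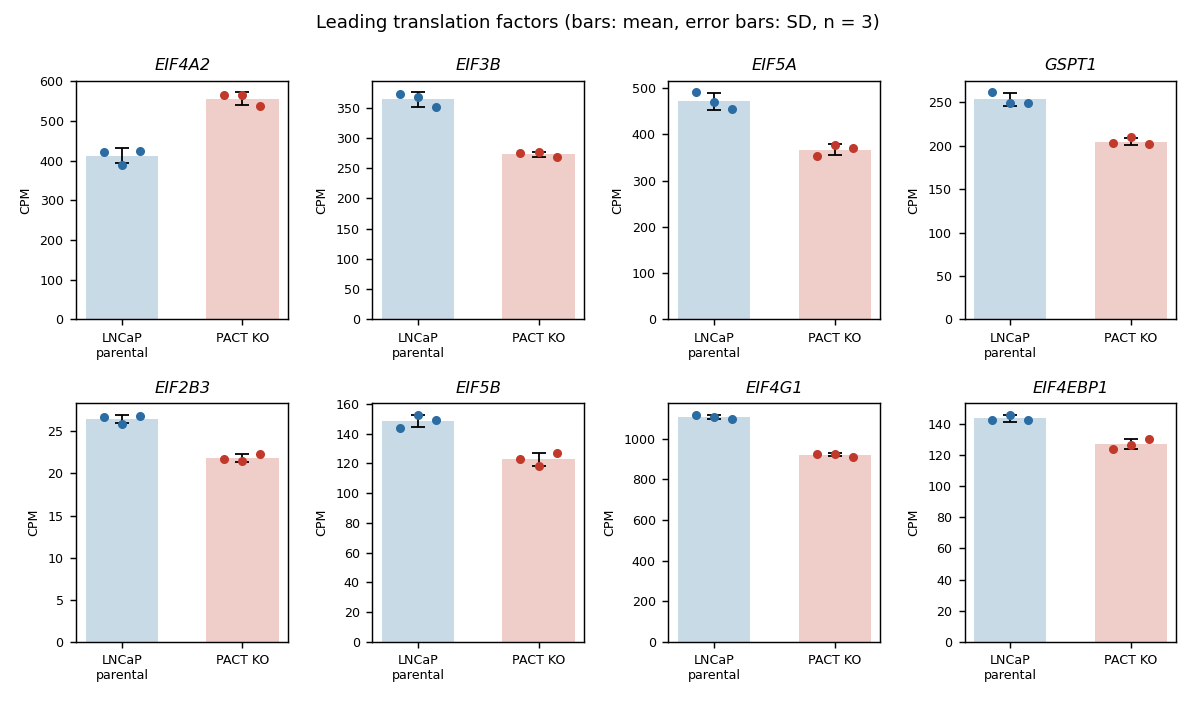
CPM of 8 leading translation factors in LNCaP parental and PACT KO cells. Bars are means, error bars are SD over 3 libraries, points are libraries, and each axis starts at 0 with its own scale. *EIF4A2* is higher in each PACT KO library, and the other 7 are lower in each.

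Of the repressors that hold eIF4E away from eIF4G, *EIF4EBP1* fell and *EIF4EBP2* did not pass. *EIF4EBP1*, which mTORC1 inactivates by phosphorylation, had 3231, 3156 and 3529 reads in parental and 3063, 3080 and 2640 in PACT KO libraries. In CPM the libraries were at 142, 146 and 142 against 124, 127 and 131, which did not overlap, and the log2 fold change was -0.18 (SE 0.03, FDR 7.64e-06). *EIF4EBP2* was at 234 ± 3.80 and 230 ± 3.16 CPM, a change of -0.03 with a 95% interval from -0.08 to 0.02.

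*EIF5A*, the only known carrier of the modified amino acid hypusine with its copy *EIF5A2*, fell as well. Its reads were 11135, 10158 and 11242 in parental and 8740, 9152 and 7481 in PACT KO libraries, or 490, 470 and 454 CPM against 354, 376 and 370 CPM. No PACT KO library reached the lowest parental library, and the log2 fold change was -0.36 (SE 0.03, FDR 3.23e-13). The 86 genes within 2 Mb had a median of -0.01. *EIF5AL1*, an intronless near-copy, had 32 to 49 reads per library, so few reads were assigned there. *EIF4A3*, a helicase of the exon junction complex, had 2540, 2189 and 2531 against 2351, 2350 and 1907 reads and fell by 0.14 (FDR 0.0013), a call lost without LNCaP parental replicate 1 (-0.09). *EIF6*, which keeps free large subunits from joining, had a value of -0.09 (FDR 0.0203) that did not pass.

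Of the 6 elongation genes 5 (83.3%) fell, all by little. Lower were 18.8% of all genes tested and 29.2% of those of at least 30 CPM. *EEF1D* and *EEF1B2*, exchange factors that recharge eEF1A with GTP, had 10311, 9749 and 10970 against 10353, 9502 and 8103 reads and 8385, 8048 and 8887 against 8199, 8324 and 6567 reads. *EEF1D* fell by 0.15 (FDR 1.22e-05) and *EEF1B2* by 0.14 (FDR 5.46e-05). *EEF2*, the translocase, had 137450, 129047 and 149458 reads in parental and 140874, 136337 and 108552 in PACT KO libraries, 6019 ± 44.7 against 5559 ± 171 CPM, and fell by 0.11 (FDR 2.65e-04). *EEF1A1*, which brings aminoacyl-tRNA to the ribosome, had 172824, 159476 and 181857 against 171922, 172360 and 138379 reads, 7443 ± 146 against 6963 ± 121 CPM, and fell by 0.10 (FDR 0.00144). *EEF1G*, the structural subunit of the exchange complex, fell by 0.09 (FDR 0.00338). In all 5 genes the groups did not overlap in CPM.

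The last 3 lost their call in fits with 1 library fewer, while their values stayed negative. Over all 15 alternatives the call was lost in 3 for *EEF2*, 6 for *EEF1A1* and 7 for *EEF1G*. *EEF2* did not pass with LNCaP parental replicate 1 (-0.11) or 3 (-0.11) left out, nor without PACT KO replicate 3 (-0.08). *EEF1A1* and *EEF1G* missed it without any 1 of the LNCaP parental replicates (from -0.10 to -0.08 for *EEF1A1* and from -0.10 to -0.07 for *EEF1G*) and without PACT KO replicate 3 (-0.08 and -0.07). *EEF2K*, the kinase that inhibits eEF2, had 49.6 ± 1.27 and 51.3 ± 2.03 CPM in overlapping groups, a value of 0.05 (FDR 0.364).

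Both termination factors among the 45 were lower, beside 18.8% of all genes tested. *GSPT1*, which encodes the GTPase eRF3, had 5935, 5383 and 6178 reads in parental and 5008, 5107 and 4080 in PACT KO libraries, or 261, 249 and 249 CPM against 203, 210 and 202 CPM. The log2 fold change was -0.31 (SE 0.03, FDR 1.99e-11), with a median of -0.11 for the 14 genes within 2 Mb. *ETF1*, which encodes eRF1, the factor that reads stop codons, had 4099, 3727 and 4485 against 4012, 3936 and 3136 reads, 178 ± 4.88 against 160 ± 4.05 CPM, and fell by 0.16 (SE 0.03, FDR 4.3e-05). Neither gene had overlapping groups. *GSPT2*, the paralog of *GSPT1* outside the 45 factors, rose by 0.23 (FDR 0.00384), also without overlap in CPM.

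Ratios of partner genes within each library do not depend on how libraries are scaled. Of the 10 ratios planned 9 were computed, since *EIF4A1* was at 0, and each was tested by a two-sided exact permutation test over the 6 libraries, which with 3 against 3 cannot go below p = 0.10. Adjusted over the 9 ratios, the smallest exact p is 0.18. The groups did not overlap in 5 of them, so these 5 reached the smallest p that the design allows. *EIF4G2* reads per *EIF4G1* read were 1.41, 1.40 and 1.42 in parental and 1.68, 1.74 and 1.77 in PACT KO libraries, a difference of 0.29 on the log2 scale. *EIF4G3* per *EIF4G1* went from 0.113, 0.117 and 0.116 to 0.146, 0.145 and 0.145 (0.34). Relative to *EIF4G1*, therefore, both relatives were higher in every PACT KO library.

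*GSPT1* per *ETF1* went from 1.45, 1.44 and 1.38 to 1.25, 1.298 and 1.301 (-0.15), and *EIF4EBP1* per *EIF4EBP2* from 0.606, 0.613 and 0.618 to 0.538, 0.546 and 0.578 (-0.15). *EEF2K* per *EEF2* was 0.00805, 0.00821 and 0.00846 in parental and 0.00922, 0.00874 and 0.00976 in PACT KO libraries (0.16). In each of these pairs a gap remained between the parental and the PACT KO libraries. The other 4 ratios overlapped between groups. They were *EIF4EBP1* per *EIF4E* (-0.15, exact p = 0.2), *EIF4E2* per *EIF4E* (-0.10, exact p = 0.3), *EEF1D* per *EEF1B2* (-0.02, exact p = 0.9) and *EIF4EBP2* per *EIF4E* (-0.003, exact p = 1).

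**Figure D4:**
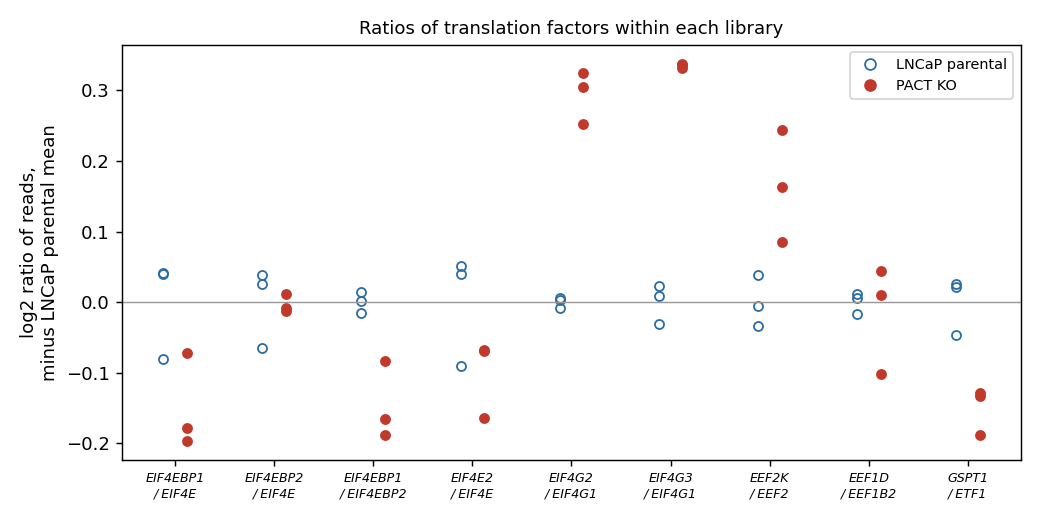
Log2 ratio of reads of 2 factors within each library, minus the mean of the 3 LNCaP parental libraries (vertical axis), for 9 pairs. Open points are parental and filled points PACT KO libraries. The filled points of *EIF4G2* and *EIF4G3* over *EIF4G1* lie between 0.25 and 0.34, above all open points, whereas those of *EIF4EBP2* over *EIF4E* lie among the open points.

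Some paralogs outside the 45 factors had larger changes. *EEF1A2*, the second gene for eEF1A and best known from muscle and nerve, had 15437, 14241 and 16665 reads in parental and 7884, 7921 and 6011 in PACT KO libraries. Its level was 670 ± 10.8 against 314 ± 14.9 CPM, and the log2 fold change was -1.09 (SE 0.03, FDR 8.3e-28). *EIF5A2* had 170, 157 and 188 against 125, 123 and 84 reads and fell by 0.64 (SE 0.11, FDR 8.03e-06). These were DEGs, and both are paralogs of factors with smaller falls, *EEF1A1* and *EIF5A*. The difference between paralogs was not tested. *EIF4E3*, a further cap-binding homologue, rose by 0.35 (FDR 6.61e-05), from 445, 493 and 534 to 635, 719 and 526 reads.

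The enzymes that modify these factors were partly lower. *DHPS* and *DOHH*, which make hypusine on eIF5A in succession, fell by 0.17 (FDR 2.33e-04) and 0.33 (FDR 9.4e-04), with 1989, 1799 and 1986 against 1835, 1797 and 1523 reads and 347, 318 and 381 against 297, 291 and 243 reads. In CPM both had separate groups, as did *EIF5A* itself. *DPH1* (-0.32, FDR 3.54e-07) and *DPH2* (-0.31, FDR 2.73e-08) start the synthesis of diphthamide, a modified histidine of eEF2. *EEF2KMT* (-0.28) and *METTL13* (-0.18) methylate eEF2 and eEF1A. Of the 14 elongation factors and modifiers tested beyond the 45 factors, 5 (35.7%) were lower and none higher, with a median of -0.07. Among all genes tested 18.8% were lower, and 29.2% of those of at least 30 CPM. The other *DPH* genes of this list did not pass, with values from -0.04 to 0.18.

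**Figure D5:**
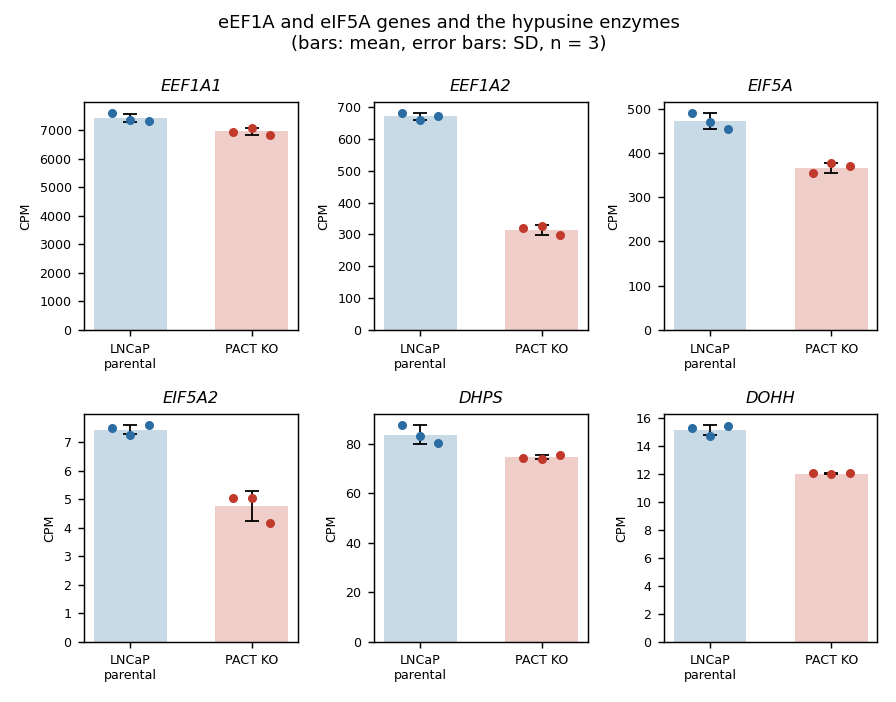
CPM of the genes for eEF1A and eIF5A and of the hypusine enzymes *DHPS* and *DOHH* in LNCaP parental and PACT KO cells. Bars are means, error bars SD over 3 libraries, points are libraries, and each axis starts at 0. Each of the 6 genes is lower in PACT KO cells, *EEF1A2* by the largest factor.

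Other parts of the pathway are given for comparison, from lists compiled by function. Of 13 other initiation factors tested, 3 (23.1%) were lower and 1 (7.69%) higher, near the 18.8% and 15.3% over all genes, with a median of -0.04 and with *ABCF1* (-0.15) and *MCTS1* (-0.12) lower beside *EIF5A2*. Of 7 poly(A) binding proteins and their regulators, *PABPC4* was lower (-0.23), and *PABPC1L* (0.26) and *PAIP1* (0.11) were higher. The median of the latter list was -0.01. Upstream, 7 of 14 genes of mTORC1, S6 kinase and the MNK kinases (50%) were lower and 1 (7.14%) was higher, with a median of -0.11. Lower were *RPS6KB2* (-0.26), which encodes an S6 kinase, *MLST8* (-0.25) and *AKT1S1* (-0.20), which encode mTORC1 components, and *PDCD4* (-0.16), which encodes an inhibitor of eIF4A. *LARP1*, which binds TOP mRNAs, fell by 0.11.

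The cytosolic ribosomal protein genes, whose mRNAs are the classical TOP mRNAs, had 55 of 79 (69.6%) lower and none higher and a median of -0.11. That median was close to the -0.12 of the factors. The share of lower genes was 18.8% over all genes tested and 29.2% among those of at least 30 CPM. Of 10 factors known for TOP mRNAs from general knowledge, 7 (70%) were lower and none higher, with a median of -0.09. *EIF4A2* (0.43), which has a TOP start by annotation, is not among these 10. Of all 44 factors tested, 63.6% were lower. Of 9 eIF2 subunits, kinases and phosphatase subunits, 5 (55.6%) were lower and 2 (22.2%) higher, with a median of -0.13. *EIF2S3* (-0.15) and *EIF2S2* (-0.16), which encode subunits of eIF2, were lower, and *EIF2AK3*, which encodes the kinase PERK, was higher (0.23).

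The counting sets limits on single genes. Of the 45 factors, 27 overlap another annotated gene, such as *REV1* at *EIF5B* and *SNX8* at *EIF3B*. Other genes named, such as *DPH1* and *MLST8*, do so too. Overlap was taken over whole gene spans, introns included. Only reads from stretches that both genes transcribe could be mixed without strand, and how many such reads there were was not counted. Of the 30 factors called, 19 kept their call in every alternative to the test, the scaling, the filter, the replicate block and the set of libraries.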

How the data were processed

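LNCaP parental and PACT KO polyA RNA was sequenced in 3 libraries each, and the authors deposited whole read counts per NCBI Gene number, not normalized. The submitters' processing notes name bcl2fastq 2.20.0.422, STAR 2.5.3a, StringTie 1.3.3, featureCounts 1.5.3 and hg38. Which annotation was used, and whether strand was, is not given in the sources used here. A row with no gene number (0.0688% to 0.0708% of reads) was left out. RefSeq (GRCh38.p14) gave symbols for 27540 of 29806 Gene numbers.

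Genes were kept by filterByExpr, scaled by TMM and tested by glmQLFit and glmQLFTest (edgeR 4.0.16, R 4.3.3), two-sided, without a block. The edgeR fit with TMM, the FDR of 0.01 and the 1.5-fold threshold follow the study's methods. The SE of a log2 fold change came from its F statistic. CPM carry TMM factors (0.985 to 1.02), and the biological coefficient of variation was 2.9%. Depth limits precision for genes of few reads, and 3 counts are 0.121 to 0.148 CPM. DESeq2 1.42.0, limma-voom (limma 3.58.1), other scalings, filters and thresholds and leaving out libraries were alternatives. The test was first tried on simulated data. Sequences came from RefSeq tables and Python 3.11.15.

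Members and lists were chosen with earlier results of these data known. Per group, reads per library are given for up to 4 passing factors of largest change, and at most 5 genes of smallest p from each list. Added after their values were seen were *EIF3CL*, *GSPT2*, the reads of *EIF4E*, *EIF5AL1*, *SENP3* and its read-through, and the range of the other *DPH* genes. No label ties a parental dish to a PACT KO dish of the same number. Deviations of same-numbered libraries correlated at -0.292, 0.173 and -0.381 over 9958 genes. They were not compared with those of other pairs, so they cannot decide whether dishes were paired.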

Additional observations from a re-analysis of the deposited data

How the results depend on the processing

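The 28 lower factors were 25 with DESeq2, 28 with limma-voom and with edgeR's exact test, 27 with RLE scaling, 22 with upper quartile and with total count scaling, 25 with no filter, 28 with a filter of 1 CPM and 31 at an FDR under 0.05. With the replicate number as a block they were again 28 lower and 2 higher, and the block changed no call. Leaving out 1 library gave 20 to 26 lower and 1 to 2 higher factors, where the 1 was *EIF4A2* without LNCaP parental replicate 1 or 2. No factor was a DEG in any alternative at 1.5-fold, and 7 were at a 1.2-fold threshold. Another scaling moved the median of all genes by at most 0.03 on the log2 scale. Values that changed sign were all close to 0. *EIF4E* went from -0.03 to 0.0027 with total counts, and ran from -0.0501 to 0.0066 with 1 library left out, the last without LNCaP parental replicate 1. The ratio of *EIF4EBP2* to *EIF4E* ran from -0.035 to 0.016 with 1 library left out, and turned to 0.016 and 0.0098 without LNCaP parental replicates 2 and 3 and to 0.0014 without PACT KO replicate 2. The ratio of *EEF1D* to *EEF1B2* ran from -0.046 to 0.027, the last without PACT KO replicate 2. The causes of these changes were not tested.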

Other observations

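Of 11 genes tested that recycle ribosomes or rescue stalled ones, 5 fell (45.5%) and 3 rose (27.3%), at the same FDR threshold, with a median log2 fold change of -0.04. Over all genes tested 18.8% were lower and 15.3% higher. *ZNF598*, which encodes the ubiquitin ligase that marks collided ribosomes, had 1406, 1487 and 1675 parental reads and 1234, 1084 and 980 PACT KO reads and fell by 0.47 (edgeR, FDR 1.91e-11). *ABCE1*, whose product splits ribosomes after termination, fell by 0.27 (FDR 5.04e-09), and *PELO*, a relative of eRF1 that works on stalled ribosomes, by 0.26 (FDR 3.45e-05). *LTN1* and *NEMF*, which act together to tag the nascent chain on a stalled large subunit, rose by 0.26 (FDR 1.13e-08) and 0.24 (FDR 1.94e-06). *LTN1* had 2747, 2679 and 3244 reads in parental and 3733, 3594 and 3052 in PACT KO libraries. The groups did not overlap in CPM for any of these 5 genes. *ABCE1*, *PELO* and *NEMF* overlap other annotated genes.

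Of 11 mitochondrial translation factors tested, 3 (27.3%) were lower and none higher, with a median of -0.06, beside 18.8% lower over all genes tested and 29.2% among those of at least 30 CPM. The share of this list was thus near that of other genes. The 3 were the mitochondrial elongation factors *TUFM* (-0.23, FDR 8.96e-09), *GFM1* (-0.26, FDR 5.85e-08) and *TSFM* (-0.25, FDR 2.65e-06), which correspond to eEF1A, eEF2 and the exchange factor of eEF1A in the cytosol. *TUFM* had 6393, 6155 and 6919 reads in parental and 6122, 5828 and 4704 in PACT KO libraries, 282 ± 2.66 against 240 ± 7.57 CPM. The mitochondrial initiation and release factors did not pass the test.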
